A study of Homo sapiens with 9 samples.

Results

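Integrins are the cell-surface receptors that hold cells to the extracellular matrix, and focal adhesion proteins are the cytoplasmic proteins that tie those receptors to the actin cytoskeleton. Measured here were 36 genes of this module in glioma cells: 14 integrin subunits (10 alpha and 4 beta) and 22 cytoplasmic proteins. They form a list of named genes, and each was represented by its brightest probe set among those annotated to that gene alone. Together they had 130 of the 54675 probe sets on the array, and 35 of the 36 genes passed the filter on dim signals and were tested among 12505 genes. The exception was LIMS1 (PINCH), whose 3 probe sets all lay below the filter.

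Total RNA came from SW1783 cells, an established human glioma line, collected 24 h after transfection in 3 groups of 3 biological replicates, 9 arrays in all. Cells received a miRNA duplex at 50 nM with Lipofectamine RNAiMAX in every group: a control miRNA, miR-376a*A or miR-376a*G, so the control cells carried a duplex and the lipid as well. A and G name the unedited base of the miRNA and the base read in place of inosine after A-to-I RNA editing. The questions were how each form differed from the control transfection, and how the forms differed from each other.

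An integrin is a dimer of an alpha and a beta subunit, and the pairing decides whether collagen, laminin, fibronectin or vitronectin is bound. Talin and kindlin switch the receptor on from the inside, vinculin, alpha-actinin and tensin anchor it to actin, and focal adhesion kinase, Src, paxillin and p130Cas turn adhesion into signals. In glioma cells, integrins and focal adhesion kinase are known for their part in migration and invasion along matrix.

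The miRNA is shown because its seed is the part that pairs with target transcripts. The natural strand is listed today as hsa-miR-376a-5p, at chr14:101040788-101040809 on the plus strand of GRCh38.p14 (RefSeq), and the capitals mark the seed, bases 2 to 8. No other of the 2370 mature human names in that table had this seed. The sequences of the transfected duplexes were not used here.
hsa-miR-376a-5p: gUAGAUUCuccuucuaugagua

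Values are given as normalised signal, the linear scale after quantile normalization of log2(signal + 16), with the arrays of a group in the order of their replicate numbers, and differences as log2 values on that scale with their standard error (SE). A gene is said to have risen, fallen or passed when limma's adjusted p over the 12505 genes was below 0.05. The arrays' median deposited signals ranged from 18.8 to 24.0. Control replicate 1 stood apart: its highest rank correlation with any other array was 0.941, against 0.969 to 0.970 for the other 8 arrays. Of the tested members, 3 of 35 (8.57%) differed over 2-fold on that array from control replicates 2 and 3 averaged, and of all genes 6.17% did. They were ITGB8 (-2.39), ITGA6 (-1.74) and ITGAV (-1.04), all integrin subunits. The 3′ to 5′ ratio of the GAPDH control probe sets was 0.910 on that array and 0.867 to 0.934 on the other 8, and that of ACTB was 0.912 and 0.861 to 0.910. Calls and medians that change without this array are given both ways, and "with all arrays" means the fit of all 9 at equal weight. Of the markers used to check the cell line, 2 of 6 astrocyte and glioma genes were above the filter (VIM and SLC1A3), and GFAP, S100B, AQP4 and NES were below it. All 5 fibroblast and mesenchymal genes were above it, as were 4 of 5 neuronal genes, TUBB3 and SNAP25 among them, 2 of 5 epithelial (KRT8 and KRT18) and 2 of 4 endothelial genes, and the leukocyte integrin gene ITGB2. EPCAM, CDH1, PTPRC and CDH5 were below it.

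After miR-376a*A, PARVA (alpha-parvin) and PTK2 (focal adhesion kinase) rose and VCL (vinculin) fell. The 2 rises among 35 members compare with 1.95% of all genes, and the 1 fall with 1.38%. No integrin subunit passed with this form in limma, where 2 of 14 had an unadjusted p under 0.05, against 1858 of the 12505 genes. The median log2 difference of the members was 0.07, with 23 above and 12 below 0, against 0.01 over all genes. The receptors had a median of 0.14 and the cytoplasmic proteins of 0.05. Without control replicate 1 these were 0.08 and 0.06, and the median of the members was 0.06 (22 above and 13 below 0), against 0.02 over all genes.

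After miR-376a*G, ITGA2 and PARVA rose and VCL and LPP fell. These 2 rises compare with 2.5% of all genes and the 2 falls with 2.12%. The median of the members was -0.10, with 15 above and 20 below 0, against 0.01 over all genes. It was -0.05 for the receptors and -0.18 for the cytoplasmic proteins. These shifts were not seen without control replicate 1, when the median was 0.00104 (18 above and 17 below 0), with -0.00192 for the receptors and 0.00104 for the cytoplasmic proteins, against 0.02 over all genes. PARVA and VCL thus passed in both comparisons, which share their control arrays.

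**Figure D1:**
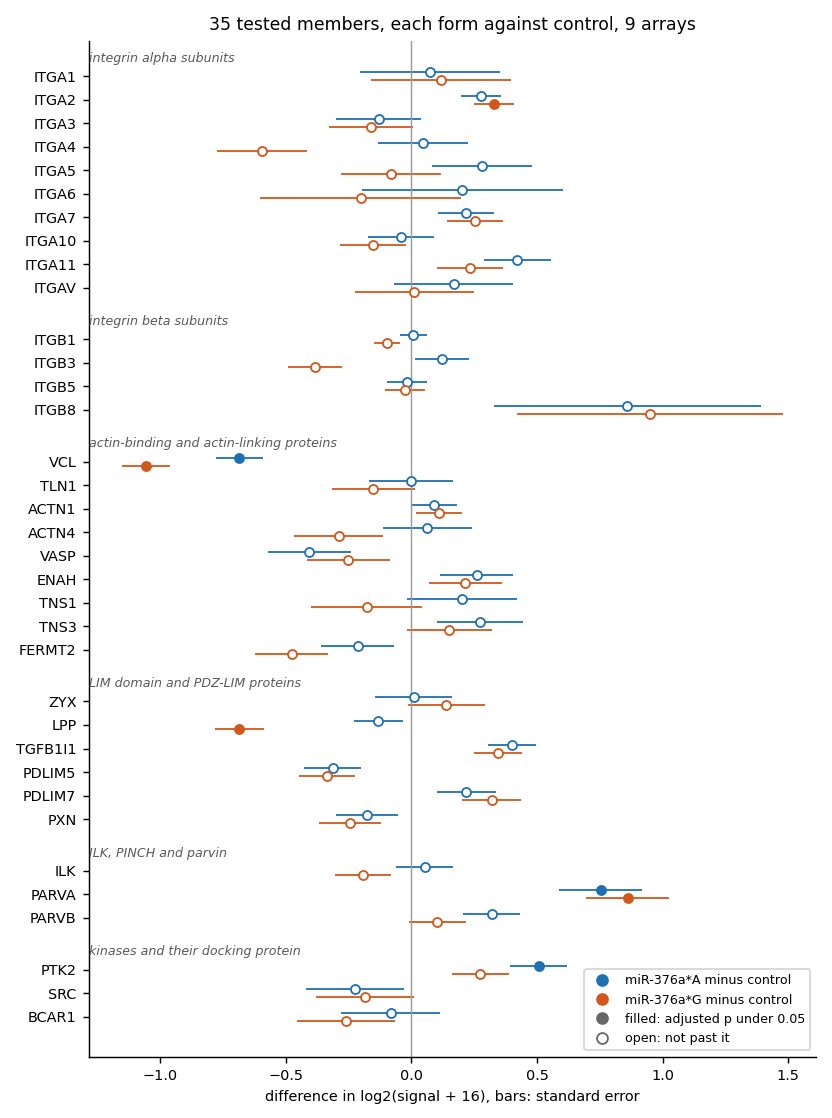
Difference from control in log2(signal + 16) for the 35 tested members, miR-376a*A in blue and miR-376a*G in orange, bars showing the standard error and filled points an adjusted p under 0.05. VCL lies at -0.68 and -1.06, PARVA at 0.75 and 0.86, and LPP at -0.13 and -0.68, while ITGB8 has the widest bars.

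Vinculin, the protein that links talin to actin filaments as a contact comes under tension, gave the largest fall among the brightest probe sets of the members. VCL signal in control cells was 1230.5, 1302.2 and 1506.9, in miR-376a*A cells 835.5, 853.3 and 798.1, and in miR-376a*G cells 580.6, 653.1 and 680.7. Every control array was above every array of both forms, and every miR-376a*A array was above every miR-376a*G array. The control mean of 1347 ± 143 (SD, n = 3) became 829 ± 28.2 after miR-376a*A and 638 ± 51.7 after miR-376a*G. The fall was -0.68 (SE 0.09) after miR-376a*A, with limma adjusted p = 0.00319, and -1.06 (SE 0.09) after miR-376a*G, with adjusted p = 0.00032, a difference of 2.08-fold. Both falls passed under all 21 other settings tried. The difference between the forms, 0.37, had adjusted p = 0.0803 in limma with all arrays. Without control replicate 1, which changes only the estimate of the spread in that comparison, the adjusted p was 0.0102, and over the settings it was between 0.000754 and 0.329. The other VCL probe set was below the filter.

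LPP, the lipoma preferred partner, is a LIM domain protein of focal adhesions and the closest relative of zyxin in this list. Its signal in control cells was 461.0, 470.4 and 546.5. After miR-376a*A it was 456.1, 427.4 and 457.5, and after miR-376a*G 291.4, 301.9 and 306.0. The miR-376a*G arrays were below all others, whereas miR-376a*A arrays lay just under the control range. LPP fell after miR-376a*G by 0.68 on the log2 scale (SE 0.10, limma adjusted p = 0.00359, 1.61-fold), and this passed under all 21 other settings. After miR-376a*A the difference from control was -0.13 (adjusted p = 0.596). LPP was higher after miR-376a*A than after miR-376a*G, 0.55 (SE 0.10, limma adjusted p = 0.0147). That call was lost when any 1 of the 6 arrays of the forms was left out, with an adjusted p of up to 0.0950 (range over the settings 6.99e-05 to 0.0950).

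The promoters of these genes, VCL and LPP, are shown because theirs are the falls that passed under every setting. Each spans 250 bases before to 50 bases after a start listed by RefSeq on GRCh38.p14, plus strand. LPP had 7 such starts, and the 1 shown was picked after the search because it held the most of the motifs. Capitals mark matches, on either strand, to AP-1 (TGANTCA), TEAD (GGAATG), Sp1 (GGGCGG) and the SRF CArG box, and no match overlapped another.
VCL, chr10:73997866-73998165: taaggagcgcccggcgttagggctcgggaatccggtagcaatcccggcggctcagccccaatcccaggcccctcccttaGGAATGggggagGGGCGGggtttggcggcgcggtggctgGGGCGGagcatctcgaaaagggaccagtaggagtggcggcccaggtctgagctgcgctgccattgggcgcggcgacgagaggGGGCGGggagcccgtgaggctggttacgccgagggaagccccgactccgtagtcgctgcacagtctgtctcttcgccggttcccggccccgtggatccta
LPP, chr3:188212462-188212761: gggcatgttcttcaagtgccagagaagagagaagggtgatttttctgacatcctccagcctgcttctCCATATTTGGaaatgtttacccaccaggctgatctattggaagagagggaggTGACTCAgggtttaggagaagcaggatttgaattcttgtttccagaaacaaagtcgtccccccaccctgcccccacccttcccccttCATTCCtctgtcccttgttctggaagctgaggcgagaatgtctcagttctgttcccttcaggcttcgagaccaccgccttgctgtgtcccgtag

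In VCL the capitals are 1 TEAD and 3 Sp1 matches, and in LPP they are, from the 5′ end, 1 CArG box, 1 AP-1 match and 1 TEAD match in reverse complement. Promoters were listed for 30 of the 36 members (62 starts) and 35116 in all. The CArG box was in 4.839% of the member promoters and 1.293% of all, in ACTN1, LPP and TGFB1I1. AP-1 was in 11.29% against 7.709%, TEAD in 16.129% against 14.033%, and Sp1 in 58.065% against 44.954%. These shares count starts, some of which overlap, and LPP alone had 7 of the 62. By gene, AP-1 was in 5 of the 30 members, TEAD in 8 and Sp1 in 24. These are matches of letters, which say nothing on whether a factor was bound.

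**Figure D2:**
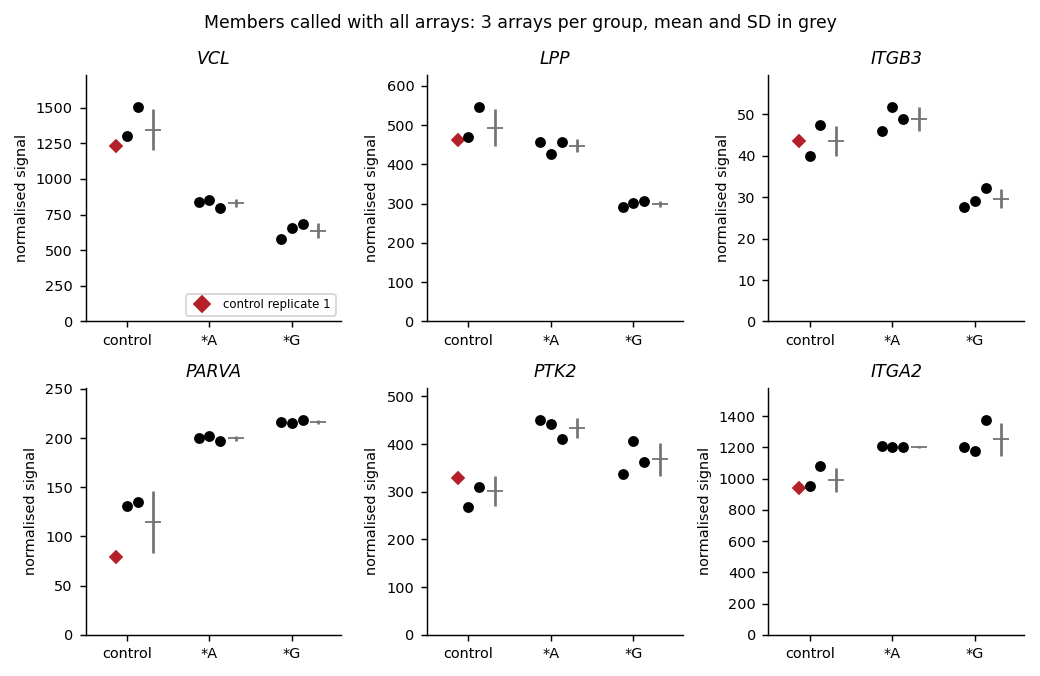
Normalised signal of the 6 members that passed in any comparison with all arrays, 1 point per array, with the mean and SD of 3 arrays in grey and control replicate 1 as a red diamond. The VCL and PARVA groups of both forms lie apart from control, and LPP and ITGB3 are lowest after miR-376a*G.

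Among the beta subunits, ITGB3, the partner of ITGAV in the vitronectin receptor, differed between the forms. Its signal was 46.1, 51.8 and 48.8 after miR-376a*A, 27.7, 29.1 and 32.3 after miR-376a*G, and 43.6, 40.0 and 47.3 in control. The miR-376a*G arrays were below both other groups, and the other groups overlapped. ITGB3 was higher after miR-376a*A than after miR-376a*G by 0.51 (SE 0.11, limma adjusted p = 0.0353), and this passed under 12 of 20 other settings (0.000531 to 0.185). It was lost when any 1 of the 6 arrays of the forms was left out, with no filter on dim probe sets, and with a replicate block (0.0902). Against control the difference was -0.38 after miR-376a*G (limma adjusted p = 0.0785, and 0.0309 without control replicate 1) and 0.12 after miR-376a*A (adjusted p = 0.664). The other 6 ITGB3 probe sets were below the filter, and this signal was itself dim, so it rests on 1 probe set.

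ITGB1, the beta subunit shared by most integrins of the collagen, laminin and fibronectin receptors, did not pass in any comparison by its brightest probe set. Its signal was 2388.7, 2237.8 and 2209.3 after miR-376a*A, 2095.8, 2079.8 and 2173.9 after miR-376a*G, and 2154.4, 2247.4 and 2399.1 in control. The differences from control were 0.01 (SE 0.05) and -0.10 (SE 0.05), and that between the forms was 0.11. The next 2 by brightness, with mean signals of 1922 and 1533, gave 0.31 and 0.41 between the forms (limma adjusted p = 0.141 and 0.0389) and -0.22 and -0.32 after miR-376a*G (0.227 and 0.0732). Once control replicate 1 was left out, both passed between the forms (0.00304 and 0.0012) and after miR-376a*G (0.00357 and 0.00224). ITGB5, another partner of ITGAV, lay between 698.5 and 777.1 on all 9 arrays.

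ITGB8, the subunit that with ITGAV activates latent TGF-beta, had large differences that came from 1 array. Its control signal was 48.1, 303.9 and 337.5, against 267.8 to 428.9 over the 6 arrays of the forms. Without control replicate 1 the differences of 0.86 and 0.95 became 0.06 and 0.15, and none passed in limma (adjusted p with all arrays 0.511 and 0.401).

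Of the alpha subunits, ITGA2, which pairs with ITGB1 as a collagen receptor, rose after miR-376a*G. Its signal was 1202.0, 1175.9 and 1375.3 after miR-376a*G, 1207.0, 1200.2 and 1200.2 after miR-376a*A, and 942.4, 953.7 and 1079.9 in control. All arrays of both forms were above all control arrays. The rise after miR-376a*G was 0.33 (SE 0.08, limma adjusted p = 0.0479), and the difference after miR-376a*A was 0.28 (adjusted p = 0.112). Fitted with a replicate block, the former had limma adjusted p = 0.0600, and it passed under 6 of 21 other settings (0.00343 to 0.193). It was lost without any 1 of the arrays of the forms and without control replicate 2. Without control replicate 1 the values were 0.29 (limma adjusted p = 0.0265) and 0.24 (0.0667). The second ITGA2 probe set gave 0.43 with each form and did not pass.

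ITGA4, ITGA5, ITGA6 and ITGAV did not pass with all arrays but did in some comparison without control replicate 1. ITGA4, part of the fibronectin and VCAM1 receptor, had signals of 133.9, 142.0 and 119.1 after miR-376a*A, 78.4, 79.5 and 77.5 after miR-376a*G, and 90.7, 129.1 and 172.0 in control. The miR-376a*G arrays were lowest and close together, below every other array. After miR-376a*G the difference was -0.60 (limma adjusted p = 0.103) with all arrays and -0.81 (0.000909) without that control, and over the settings the adjusted p was 0.000693 to 0.581. Between the forms it was 0.64 (limma adjusted p = 0.126 with all arrays and 0.00208 without that control, range 0.000236 to 0.574). The 3 other ITGA4 probe sets gave -0.05, -0.04 and -0.03 after miR-376a*G against control. Between the forms they gave 0.13, 0.17 and 0.16, the same direction as the brightest. None of them passed in either comparison, with or without that control, so these calls are those of 1 probe set.

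ITGA5, the fibronectin receptor subunit, had signals of 713.2, 707.2 and 832.6 after miR-376a*A, 557.6, 623.9 and 557.4 after miR-376a*G, and 909.8, 498.2 and 507.1 in control. The control group straddled both others because its replicate 1 was the highest of the 9 arrays. With all arrays the difference after miR-376a*A was 0.28 (limma adjusted p = 0.578). When that array was left out, ITGA5 was higher after miR-376a*A than in control by 0.56 (limma adjusted p = 0.00188, range over the settings 0.0013 to 0.831) and higher than after miR-376a*G by 0.36 (0.0140).

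ITGA6, a laminin receptor subunit, and ITGAV, the subunit of the vitronectin receptors, had control replicate 1 as their lowest array instead. ITGA6 signal was 38.1, 177.2 and 152.7 in control, 89.4, 106.8 and 73.5 after miR-376a*G and 150.5, 122.4 and 100.5 after miR-376a*A. ITGAV signal was 357.1, 743.5 and 759.8 in control, 641.5, 581.9 and 555.7 after miR-376a*G and 716.3, 650.7 and 622.8 after miR-376a*A. With control replicates 2 and 3 alone, miR-376a*G arrays were below control in both genes. The ITGA6 difference after miR-376a*G was -0.20 with all arrays and -0.78 (limma adjusted p = 0.00712) without that control, and the ITGAV difference turned from 0.01 to -0.34 (adjusted p = 0.0205). Over the settings their adjusted p was 0.00712 to 0.965 and 0.0205 to 0.995. After miR-376a*A neither passed, and the values were 0.20 and 0.17 with all arrays and -0.38 and -0.18 without that control. A second ITGA6 probe set gave -0.05 after miR-376a*A and -0.04 after miR-376a*G with all arrays. Without that control it did not pass after miR-376a*G either (limma adjusted p = 0.520).

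The other integrin alpha subunits, ITGA1, ITGA3, ITGA7, ITGA10 and ITGA11, did not pass with all arrays or without control replicate 1. ITGA11, a collagen receptor subunit, had the largest difference of these after miR-376a*A, 0.42 (SE 0.13, limma adjusted p = 0.143).

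Among the actin-linking proteins, FERMT2 (kindlin-2), a co-activator of integrins, did not pass with all arrays by its brightest probe set. By that probe set it was lower after both forms once control replicate 1 was left out. Its signal was 973.2, 952.2 and 886.9 after miR-376a*A, 713.2, 795.1 and 829.6 after miR-376a*G, and 842.2, 1140.0 and 1342.7 in control. The miR-376a*G arrays were below every control array, while miR-376a*A arrays overlapped the control range. The differences were -0.21 and -0.48 with all arrays (limma adjusted p = 0.559 and 0.105), and -0.40 (0.0139) and -0.66 (0.000583) without it, with ranges over the settings of 0.0137 to 0.837 and 0.000197 to 0.315. All 3 FERMT2 probe sets were below 0 with both forms. The third in brightness passed after miR-376a*G with all arrays, at -0.67 (limma adjusted p = 0.00465).

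TNS1, a tensin that binds the integrin tail and actin, had signals of 169.6, 137.6 and 123.2 after miR-376a*A, 111.6, 110.5 and 95.7 after miR-376a*G, and 77.0, 159.5 and 143.9 in control. The miR-376a*G arrays lay below all miR-376a*A arrays. After miR-376a*G the difference was -0.18 with all arrays and -0.46 (limma adjusted p = 0.0260, range over the settings 0.0165 to 0.996) without control replicate 1. The next TNS1 probe sets by brightness gave -0.11 and 0.29 after miR-376a*G with all arrays. Neither passed with or without control replicate 1, so the call is that of 1 of 3 probe sets above the filter. TLN1 (talin), which joins the integrin beta tail to vinculin, did not pass: 68.7, 64.2 and 66.1 after miR-376a*A, 68.1, 52.9 and 54.7 after miR-376a*G, and 92.1, 53.7 and 58.5 in control.

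ACTN1, ACTN4, VASP, ENAH and TNS3 did not pass in any comparison by their brightest probe sets. ACTN1 and ACTN4 are the alpha-actinins that bundle actin, and VASP and ENAH promote filament growth at their ends. VASP had the lowest value of these after miR-376a*A, -0.41 (SE 0.17, limma adjusted p = 0.277). A dimmer ENAH probe set gave -0.50 after miR-376a*A (limma adjusted p = 0.0600, and 0.0191 without control replicate 1). The brightest gave 0.26, and 4 of the 5 ENAH probe sets above the filter were above 0 with that form.

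Among the LIM and PDZ-LIM proteins, TGFB1I1 (Hic-5), a relative of paxillin, lay above control and passed without control replicate 1 but not with all arrays. Its signal was 669.8, 734.8 and 735.2 after miR-376a*A, 726.9, 687.0 and 647.5 after miR-376a*G, and 482.1, 583.9 and 548.9 in control. Every array of both forms was above every control array. The differences of 0.40 and 0.35 did not pass with all arrays (limma adjusted p = 0.0546 and 0.0773). Without control replicate 1 they were 0.32 (0.0198) and 0.27 (0.0363), with ranges over the settings of 0.00523 to 0.234 and 0.0166 to 0.271.

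PDLIM5, a PDZ-LIM scaffold bound to alpha-actinin, was below control on every array of both forms. Its signal was 523.5, 502.6 and 514.2 after miR-376a*A, 496.0, 503.7 and 516.7 after miR-376a*G, and 536.3, 673.5 and 731.1 in control. The differences were -0.31 and -0.34 with all arrays (limma adjusted p = 0.206 and 0.140), and -0.44 (0.00207) and -0.46 (0.0014) without control replicate 1, with ranges over the settings of 0.000664 to 0.574 and 0.000616 to 0.456. All 5 PDLIM5 probe sets above the filter were below 0 with both forms, from -0.56 to -0.25, and none passed with all arrays. The 2 brightest passed after both forms once control replicate 1 was left out.

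PXN (paxillin), the scaffold on which focal adhesion kinase and vinculin dock, did not pass. Its signal was 417.3, 406.4 and 397.6 after miR-376a*A, 328.8, 442.2 and 399.4 after miR-376a*G, and 518.1, 437.1 and 434.5 in control. ZYX (zyxin) and PDLIM7 did not pass either by their brightest probe sets, with differences of 0.01 and 0.14 for ZYX and 0.22 and 0.32 for PDLIM7. A dimmer PDLIM7 probe set passed after miR-376a*A only without control replicate 1 (limma adjusted p = 0.0484).

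The complex of integrin-linked kinase, PINCH and parvin connects beta tails to actin, and PARVA, its alpha-parvin, rose after both forms. PARVA signal was 199.7, 202.6 and 197.3 after miR-376a*A, 216.3, 214.9 and 218.4 after miR-376a*G, and 78.8, 130.6 and 135.2 in control. Both groups of arrays were tight and far above control, and control replicate 1 was the lowest array. The rise was 0.75 (SE 0.17) after miR-376a*A, with limma adjusted p = 0.0359, and 0.86 (SE 0.17) after miR-376a*G, with adjusted p = 0.0166. Once control replicate 1 was left out the rises were smaller, 0.54 and 0.64, with limma adjusted p of 0.00091 and 0.000239.

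The rise of PARVA after miR-376a*A was lost without any 1 of the 6 arrays of the forms, with only the 6 arrays compared, with either other scaling, with no filter on dim probe sets and with a replicate block. That after miR-376a*G was lost without any 1 of its own 3 arrays and with only the 6 arrays compared. Averaged over the probe sets of the gene, the PARVA differences were 0.23 and 0.27 and did not pass (limma adjusted p = 0.159 and 0.072). Over the settings, limma's adjusted p for PARVA was 0.000213 to 0.163 and 7.91e-05 to 0.0919. The 7 PARVA probe sets did not all move alike: 5 were above 0 and 2 below 0 with each form. The second in brightness gave 0.08 and 0.10. With all arrays only the brightest passed, so those calls are of 1 probe set. Without control replicate 1 the third in brightness also passed with both forms (limma adjusted p = 0.0196 and 0.0205), and the fourth after miR-376a*A (0.0295).

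PARVB (beta-parvin) signal was 118.3, 137.3 and 137.7 after miR-376a*A, 111.7, 103.2 and 116.8 after miR-376a*G, and 113.2, 96.4 and 96.3 in control. All miR-376a*A arrays were above all control arrays. The difference was 0.32 (limma adjusted p = 0.199) with all arrays and 0.39 (0.0202) without control replicate 1, and over the settings the adjusted p was 0.00463 to 0.547. All 5 PARVB probe sets above the filter were above 0 with both forms. ILK, the pseudokinase at the centre of the complex, did not pass (0.05 and -0.19). LIMS1 had signals of 2.3 to 13.1 and was not tested.

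Of the kinases and their docking protein, PTK2 (focal adhesion kinase) rose after miR-376a*A. Its signal was 450.3, 442.4 and 410.0 after miR-376a*A, 337.0, 405.7 and 361.6 after miR-376a*G, and 328.1, 267.8 and 309.2 in control. Both forms were above control on every array, and miR-376a*A arrays were above miR-376a*G arrays. The rise after miR-376a*A was 0.51 (SE 0.11, limma adjusted p = 0.0390, 1.42-fold), and 0.57 (0.00331) without control replicate 1. After miR-376a*G the difference was 0.27 (limma adjusted p = 0.232), and 0.33 (0.0402) without that array. The difference between the forms was 0.23 (adjusted p = 0.526).

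The PTK2 rise was lost without any 1 of the arrays of the forms, without control replicate 2 or 3, with only the 6 arrays compared, with a replicate block and averaged over its probe sets (0.29), with limma's adjusted p between 0.000297 and 0.178 over the settings. The other PTK2 probe sets above the filter gave 0.23 and 0.14 after miR-376a*A and did not pass. SRC, the tyrosine kinase that binds focal adhesion kinase, and BCAR1 (p130Cas), the docking protein both phosphorylate, did not pass by their brightest probe sets. These gave -0.22 and -0.08 after miR-376a*A and -0.19 and -0.26 after miR-376a*G.

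Set directly against each other, the forms differed in ITGB3 and LPP, both higher after miR-376a*A. These 2 of 35 members compare with 1.39% of all genes. No member was lower after miR-376a*A in limma, against 1.24% of all genes. Of the 35, 4 had an unadjusted p under 0.05 in limma in either direction, against 1336 of the 12505 genes. The median difference of the members was 0.11, with 25 above and 10 below 0, and over all genes it was near 0 (0.000419). It was 0.11 for the receptors and 0.12 for the cytoplasmic proteins.

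By array, the median of the members relative to each gene's mean over the 9 arrays was 0.0704 to 0.086 after miR-376a*A, -0.0685 to -0.0425 after miR-376a*G and -0.0418 to -0.0163 in control. Every miR-376a*A array was thus above every array of the other groups. The receptors alone were at -0.251 on control replicate 1, against -0.0536 and 0.0531 on the other control arrays.

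**Figure D3:**
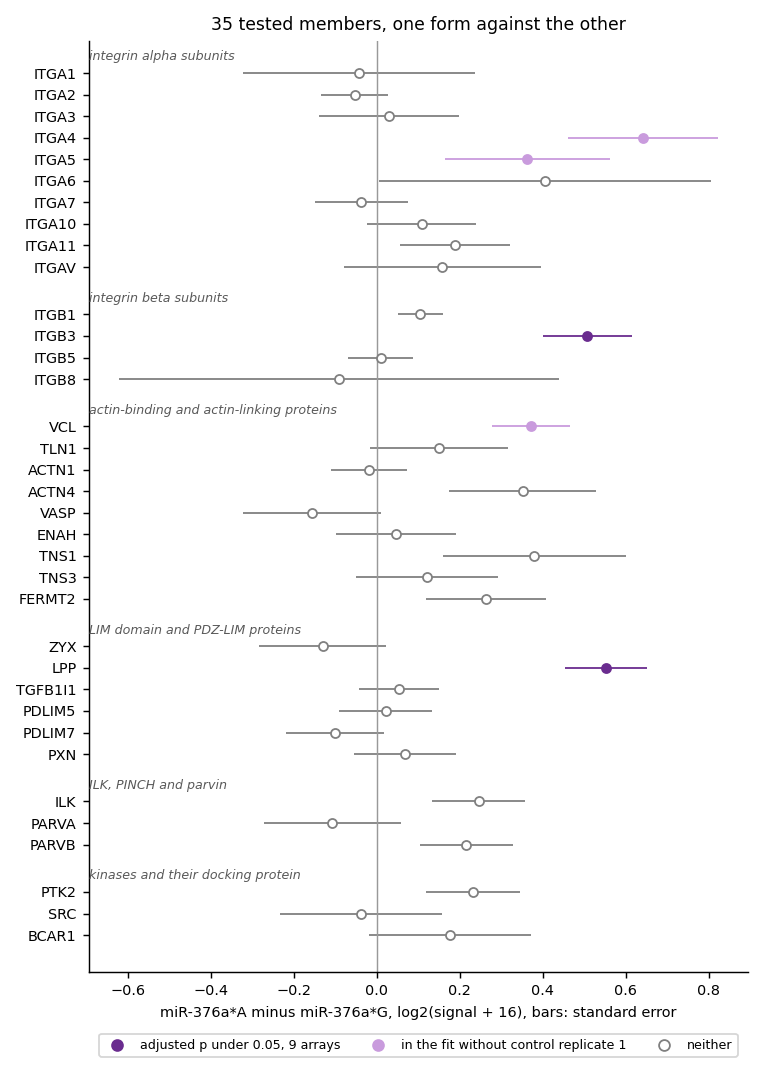
Difference miR-376a*A minus miR-376a*G in log2(signal + 16) for the 35 tested members, bars showing the standard error. ITGB3 (0.51) and LPP (0.55) passed with all arrays, in dark purple, and ITGA4, ITGA5 and VCL, in light purple, in the fit without control replicate 1.

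Leaving out control replicate 1 raised the number of members that passed, as it did over all genes. After miR-376a*A, 5 members were higher and 3 lower than control, against 6.93% and 6.42% of all genes. The rises were PARVA, PTK2, ITGA5, PARVB and TGFB1I1, and the falls VCL, FERMT2 and PDLIM5. After miR-376a*G, 4 were higher and 9 lower, against 8.52% and 8.47%. The rises were ITGA2, PARVA, PTK2 and TGFB1I1, and the falls VCL, LPP, FERMT2, PDLIM5, TNS1, ITGA4, ITGA6, ITGAV and ITGB3. Between the forms, 5 were higher after miR-376a*A (ITGB3, LPP, ITGA4, ITGA5 and VCL) and 0 lower in limma, against 5.11% and 4.57%. Of the 35, 13 had an unadjusted p under 0.05 in limma, against 2818 of the 12505 genes. Counted by their brightest probe sets, 6 members passed with all arrays, 9 more in the fit without that array, and 20 in neither of these fits.

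**Figure D4:**
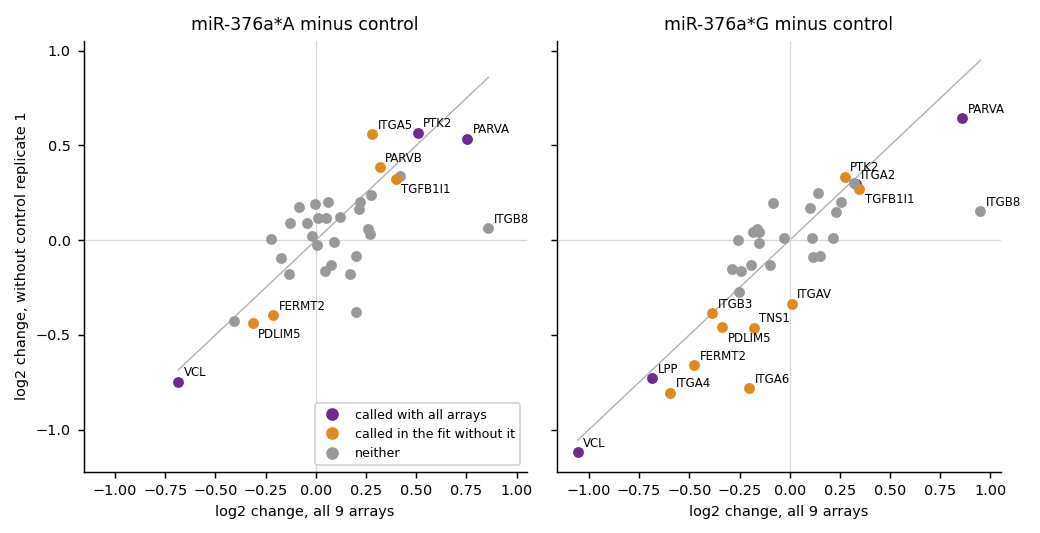
Log2 difference from control with all 9 arrays (horizontal) and without control replicate 1 (vertical), 1 point per tested member, miR-376a*A left and miR-376a*G right, with the line of equal values. ITGB8 drops from 0.86 and 0.95 to 0.06 and 0.15, and ITGA6 and ITGAV move below the line after miR-376a*G.

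By their brightest probe sets, 19 of those 20 members lay within 0.5 of control with each form, ITGB8 being the exception. Dimmer probe sets of SRC (0.95 after miR-376a*A and 1.23 after miR-376a*G) and ENAH (-0.50 after miR-376a*A) lay outside that limit. Their range was -0.41 (VASP) to 0.86 (ITGB8) after miR-376a*A and -0.29 (ACTN4) to 0.95 (ITGB8) after miR-376a*G, and -0.16 (VASP) to 0.35 (ACTN4) between the forms.

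The members had 53 further probe sets above the filter, which were tested with 22896 probe sets in all. After miR-376a*A, 2 of the 53 rose and 0 fell, against 1.64% and 1.17% of all probe sets. After miR-376a*G, 1 rose and 3 fell, against 2.11% and 1.65%, and between the forms 2 were higher after miR-376a*A and 0 lower, against 1.06% and 0.983%. LPP held 2 of the 3 falls, at -1.23 (SE 0.18, limma adjusted p = 0.00414) and -1.25 (SE 0.22, 0.0117), and all 7 of its probe sets above the filter were below 0 with both forms. The former of these LPP probe sets was also higher after miR-376a*A than after miR-376a*G, by 0.87 (limma adjusted p = 0.0351).

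In SRC the probe sets moved apart. A dimmer SRC probe set had signals of 33.2, 38.6 and 40.9 after miR-376a*A, 42.8, 60.0 and 45.5 after miR-376a*G, and 7.8, 15.3 and 12.4 in control. All arrays of the forms were above all control arrays, and the control arrays were below the level used as a filter, a signal of 20.0. The probe set was thus tested only through its signal after the forms. It rose by 0.95 and 1.23 (SE 0.15 each, limma adjusted p = 0.00638 and 0.00137), while the brightest SRC probe set gave -0.22 and -0.19. Which SRC transcripts each probe set reads was not tested.

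**Figure D5:**
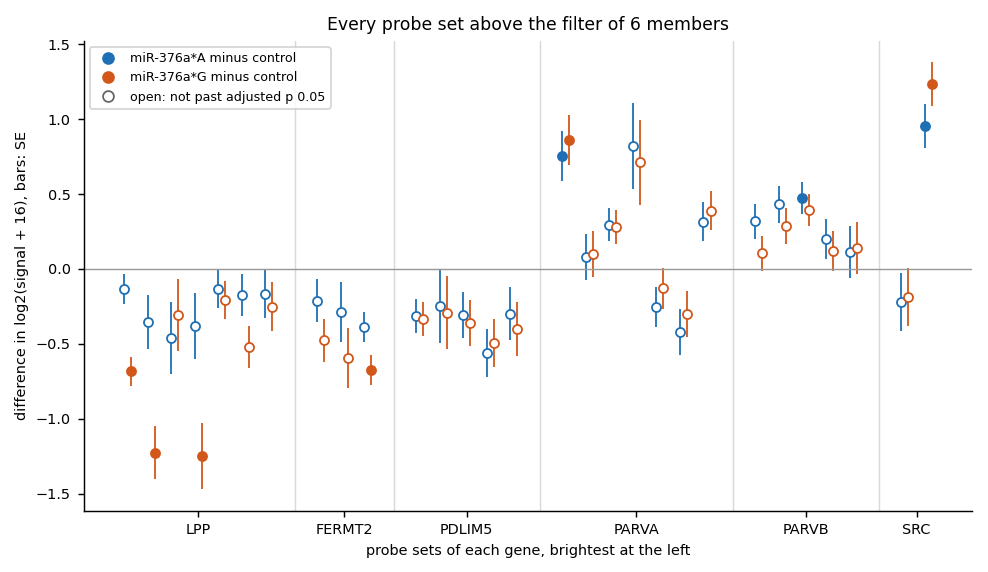
Difference from control in log2(signal + 16) of each probe set above the filter for LPP, FERMT2, PDLIM5, PARVA, PARVB and SRC, brightest at the left, bars showing the standard error and filled points an adjusted p under 0.05. All LPP, FERMT2 and PDLIM5 probe sets are below 0 and all PARVB ones above, whereas those of PARVA and SRC lie on both sides.

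Around the module, 102 further adhesion genes were listed, and 78 passed the filter: other integrins, matrix ligands, other adaptors, kinases and GTPase regulators, and the actin and myosin of stress fibres. Of these, 0 rose and 1 fell with each form, and between the forms 0 were higher and 1 lower after miR-376a*A. Over all genes 1.95% and 1.38%, 2.5% and 2.12%, and 1.39% and 1.24% were higher and lower in these comparisons. In limma 11, 6 and 5 of the 78 had an unadjusted p under 0.05, against 1858, 2232 and 1336 of the 12505 genes. Their medians were 0.02, -0.01 and 0.01. By role, 5 of 12 other integrins, 14 of 15 ligands, 23 of 32 adaptors, 19 of 23 kinases and regulators and 17 of 20 actin and myosin genes were tested, and only the last pair of roles held a gene that passed. Without control replicate 1, 6 rose and 5 fell after miR-376a*A, 4 rose and 4 fell after miR-376a*G, and 3 were higher and 3 lower between the forms, against 6.93% and 6.42%, 8.52% and 8.47%, and 5.11% and 4.57% of all genes.

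The gene that fell after miR-376a*A was MYH9, the heavy chain of non-muscle myosin IIA, which pulls on stress fibres. MYH9 signal was 555.5, 549.4 and 563.2 after miR-376a*A, 877.3, 979.0 and 1067.5 after miR-376a*G, and 1110.2, 945.4 and 987.6 in control. The miR-376a*A arrays were below all others, and the other groups overlapped. The difference was -0.85 (SE 0.09, limma adjusted p = 0.000913) from control and -0.79 (adjusted p = 0.00154) from miR-376a*G, and without control replicate 1 the former was -0.78 (limma adjusted p = 0.000123).

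The gene that fell after miR-376a*G was ARHGEF7 (beta-PIX), an exchange factor for Rac and Cdc42. ARHGEF7 signal was 236.1, 274.2 and 274.0 after miR-376a*G, 382.7, 357.1 and 373.7 after miR-376a*A, and 549.9, 438.5 and 438.5 in control, so that the 3 groups did not overlap. The difference was -0.82 (SE 0.12, limma adjusted p = 0.00359) after miR-376a*G and -0.34 (adjusted p = 0.193) after miR-376a*A. Between the forms it was 0.48 (adjusted p = 0.0669). With control replicate 1 left out, these were -0.72 (limma adjusted p = 0.000311), -0.23 (0.106) and 0.48 (0.00208).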

How the data were processed

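Total RNA of 9 SW1783 cultures was hybridised to Affymetrix arrays. The deposited values are linear signal intensities per probe set; the submitters' processing notes name GCOS 1.4.0.036, and how probe signals were summarised and background removed is not given in the sources used here. Such scaled intensities hide a change common to most transcripts.

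Intensities were turned into log2(signal + 16), a scale that understates changes of dim genes, and quantile normalized, because array medians spanned 0.201. Probe sets named 1 gene (41097), several (1801) or none (11777). Those with a mean under the 50th percentile (log2 5.17, a signal of 20.0) were left out, and the brightest of each gene was kept. The 3 groups were fitted together by limma 3.58.1 under R 4.3.3 (lmFit and eBayes, trend on), and p-values were adjusted by Benjamini-Hochberg over 12505 genes, threshold 0.05. The fit was tested on simulated data. An exact test of 3 against 3 arrays cannot give a p below 0.1, and the number of arrays limits the precision.

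The members and the gene lists were chosen with earlier results of these data known. Named with all 9 values are the members that passed with all arrays or without control replicate 1, and ITGB1, PTK2, TLN1 and PXN.

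Replicate numbers in the labels are common to the groups. Deviations of same-numbered arrays of miR-376a*G and control correlated at 0.125 to 0.187, all above the limit of 0.1. Differently numbered arrays of these groups correlated at -0.285 to 0.14, which overlaps that range, so the correlations do not settle whether the arrays are paired. The fit with all arrays held no pairing. A replicate block by these numbers, over all groups, was fitted as an alternative, and it is named where it changes a call. Alternatives covered scaling, pseudocount, filter, probe set choice, the arrays fitted, array weights and leaving out each array. Coordinates are of the RefSeq sequence tables only, since the files name no build.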

Additional observations from a re-analysis of the deposited data

Results flagged for a closer look

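These values come from probe sets that were not the brightest of their gene and so entered no comparison by gene, yet passed in limma when every probe set was tested, at adjusted p under 0.05. The third PARVB probe set by brightness was higher after miR-376a*A than in control by 0.47 (SE 0.11, limma adjusted p = 0.0484), with signals of 70.1, 62.3 and 57.8 against 38.1, 43.7 and 41.7. The SRC probe set described above, the second in brightness, was higher by 0.95 after miR-376a*A and by 1.23 after miR-376a*G. Its control signals were below the filter, so it was tested only through its signal after the forms. The third FERMT2 probe set was lower after miR-376a*G, at -0.67 (SE 0.10, limma adjusted p = 0.00465), with signals of 188.0, 188.9 and 189.4 against 289.1, 323.9 and 320.1. The third ITGB1 probe set was higher after miR-376a*A than after miR-376a*G by 0.41 (SE 0.09, limma adjusted p = 0.0389), with signals of 1657.5, 1792.5 and 1723.3 against 1258.3, 1242.3 and 1376.4. The brightest ITGB1 probe set gave 0.11 in that comparison and did not pass. Which transcripts these probe sets read was not tested.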

How the results depend on the processing

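The falls of VCL with both forms and of LPP after miR-376a*G passed in limma under all 21 other settings. The number of members that passed depended on the arrays fitted. For miR-376a*A against control it was 3, and 1 with only the 6 arrays compared, 1 with a replicate block and 10 with array weights, and 1 to 8 when an array was left out. For miR-376a*G against control it was 4, and 2, 3 and 12 under those settings in that order, and 2 to 13 when an array was left out. Between the forms it was 2, and 1 with no filter on dim probe sets, 1 with a filter at the 65th percentile, 7 with 6 arrays, 1 with a replicate block and 7 with array weights, and 0 to 5 when an array was left out. The 0 came without any 1 of the 6 arrays of the forms, when 4 to 5 of the 35 had an unadjusted p under 0.05 in limma. Among the fits that left out an array, the highest counts, 8, 13 and 5, came without control replicate 1. Of all genes, 6.93% and 6.42%, 8.52% and 8.47%, and 5.11% and 4.57% were higher and lower in those fits. No such share is given here for the other alternatives, so their counts are not read as results about the members. Taking the comparisons and other settings together, the count of members moved by more than a set ratio in 29 of 63, and that of all genes in 25 of 63. These changes are thus not particular to the members.

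The same-numbered arrays of miR-376a*A and control correlated at -0.361 to 0.0315 and those of the forms at -0.0984 to -0.0313. Differently numbered arrays correlated at -0.267 to 0.371 and at -0.132 to 0.207. With 3 arrays per group, these correlations do not settle whether the arrays are paired either. Of 1131 values of single members, 996 kept their direction and side of the threshold, 57 no longer passed, 47 newly passed and 31 turned in sign, 9 of them without control replicate 1 and 9 with array weights. Of the 31, 1 passed, ITGAV after miR-376a*G without control replicate 1. With array weights the value was -0.0093 for ITGA4, -0.42 for ITGA6, -0.16 for ITGAV, -0.0074 for ITGB1, 0.20 for TLN1 and -0.13 for TNS1 after miR-376a*A and 0.20 for ITGA5, -0.28 for ITGAV and 0.077 for TLN1 after miR-376a*G. With arrays centred on their medians the value was -0.026 for ITGB1 and 0.052 for TLN1 after miR-376a*A. With no further normalization the value was -0.095 for ITGB1 after miR-376a*A. With a pseudocount of 1 the value was 0.0039 for TLN1 after miR-376a*A. As a mean over probe sets the value was 0.077 for TLN1 after miR-376a*A. When an array was left out, the values that turned ranged over -0.095 to 0.016 for ITGA2 and -0.045 to 0.16 for PXN between the forms; -0.16 to 0.24 for ITGA4, -0.38 to 0.54 for ITGA6, -0.18 to 0.35 for ITGAV, -0.028 to 0.049 for ITGB1, -0.12 to 0.19 for TLN1 and -0.082 to 0.38 for TNS1 after miR-376a*A; -0.23 to 0.20 for ITGA5, -0.78 to 0.14 for ITGA6, -0.34 to 0.19 for ITGAV and -0.27 to 0.044 for TLN1 after miR-376a*G. The cause of these changes was not tested.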
